A study of Mus musculus with 10 samples.

Results

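Small RNA reads of the miR-99/100 and miR-125 families were counted in CD43- splenic B-cells of the mouse. The 6 members, mmu-miR-99a-5p, mmu-miR-99b-5p, mmu-miR-100-5p, mmu-miR-125a-5p, mmu-miR-125a-3p and mmu-miR-125b-5p, were taken by name from the microRNA class of the count table. All 6 were found, among 2015 microRNA rows (1302 mature microRNAs and 713 hairpins) and 6968 rows in all. The 10 libraries came from wt mice, from 3'RR-deficient and from Eµ-deficient mice. The 3'RR is a cluster of enhancers at the 3′ end of the immunoglobulin heavy chain genes, and Eµ is the enhancer in the intron upstream of their first constant gene; the study's methods call the Eµ-deficient animals EµMAR-deficient. The methods give the same inbred background for all 3 genotypes, and give 8 to 12 weeks and both sexes for mice used in cultures. Per the labels, cells stayed 2 days in culture medium alone (non-stimulated, NS) or with LPS (lipopolysaccharide, a bacterial activator of B-cells) at 5 µg per ml in the stimulation label, although the protocol text writes the dose in mg. The study's methods for its total RNA libraries describe cells taken before and after stimulation. If NS cells were taken before culture here too, each difference between LPS and NS also holds the time in culture. Each library pooled cells of 2 mice. There were 2 libraries per condition for wt and for 3'RR-deficient mice, and 1 per condition for Eµ-deficient mice. For total RNA the methods describe 4 mice per genotype and 2 pools of RNA from 2 samples each, which would make them pools of different mice. The legend of the total RNA figure gives another number of mice. For the small RNA libraries nothing in the labels says whether the libraries of a group came from separate cultures, so p-values measure the spread between these libraries, which may be technical.

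A microRNA guides Argonaute proteins to messenger RNAs, mostly through pairing of its seed, the bases near its 5′ end, and thereby lowers the output of those messages. The miR-99/100 and miR-125 families sit in the same genomic clusters, together with let-7 genes, and these clusters are conserved among animals. miR-125 microRNAs are known from blood stem cells and from B-cell leukaemia, where miR-125b can act as an oncogene, and miR-125b was described as a repressor of the plasma cell regulators Prdm1 and Irf4. The miR-99/100 family is known to repress components of the mTOR growth pathway.

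The mature sequences, from RefSeq (GRCm38.p6), are shown because they group the members by seed and show how close the members of a family are. Capitals mark the seed, bases 2 to 8 counted from the 5′ end.
miR-99a-5p: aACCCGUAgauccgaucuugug
miR-100-5p: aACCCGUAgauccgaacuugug
miR-99b-5p: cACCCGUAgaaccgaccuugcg
miR-125a-5p: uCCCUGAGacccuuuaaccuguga
miR-125b-5p: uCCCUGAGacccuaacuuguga
miR-125a-3p: aCAGGUGAgguucuugggagcc

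The 3 members of the miR-99/100 family share the seed ACCCGUA. miR-99a-5p and miR-100-5p differ by 1 base, U16A (the base of the first microRNA, its position from the 5′ end, the base of the second), and miR-99a-5p differs from miR-99b-5p at 4 bases, A1C, U11A, U16C and U21C. miR-125a-5p (24 nt) and miR-125b-5p (22 nt) share the seed CCCUGAG, with 13 identical bases from the 5′ end and 5 from the 3′ end. miR-125a-3p, from the other arm of the miR-125a hairpin, has a seed of its own. How reads that fit more than 1 of these sequences were assigned is not given in the sources used here, so the split between miR-99a-5p and miR-100-5p is less certain than their sum.

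Each of 3 clusters holds 1 member of each family with a let-7 gene between them (positions in GRCm38, all on the plus strand). On chromosome 17, miR-99b-5p (17830194 to 17830215), let-7e-5p (17830366 to 17830387), miR-125a-5p (17830817 to 17830840) and miR-125a-3p (17830855 to 17830876) lie in Spaca6, the first pair in an intron and both miR-125a arms in an exon of an annotated transcript. Their 3 hairpins span 692 bases. On chromosome 16, miR-99a-5p (77598940 to 77598961), let-7c-1 and Mir125b-2 (77646279 to 77646300) span 47408 bases in introns of the non-coding gene Mir99ahg. On chromosome 9, miR-100-5p (41531437 to 41531458), let-7a-2 and Mir125b-1 (41581940 to 41581961) span 50578 bases in introns of 3110039I08Rik. miR-125b-5p therefore comes from 2 loci, which the single row of the table cannot separate.

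Libraries held 3482540 to 18144016 counts, of which 2225722 to 12377000 were in the microRNA class, and the 6 members together took 306 to 13592 counts of a library. The microRNA class held 60.2% (NS) and 51.4% (LPS) of the counts in Eµ-deficient libraries and 63.9% to 82.1% in the others. Levels are given as CPM, that is, microRNA counts brought to a common library size with TMM over the 10 libraries. The second NS libraries of wt and of 3'RR-deficient mice held fewer counts than the first (3482540 against 15073103 in wt, 3756662 against 11915044 in 3'RR-deficient mice). They also stood apart from the first in a way related to base composition. The log2 difference between second and first library moved by 1.07 per 10% of GC content in wt NS and by 0.874 in 3'RR-deficient NS, against -0.248 and -0.189 in the LPS groups, so the LPS response over both genotypes and the comparisons of Eµ-deficient with wt and 3'RR-deficient cells are also given without both of them. The comparisons between wt and 3'RR-deficient cells and those within 1 genotype include them. The microRNAs of the B-cell list, miR-150-5p, miR-142a-3p, miR-142a-5p and miR-155-5p, were present in every library. Their summed level was 64170 to 233201 CPM in the 4 NS and 81382 to 147787 CPM in the 4 LPS libraries of wt and 3'RR-deficient mice. It was 71239 (NS) and 145992 CPM (LPS) in Eµ-deficient mice. In NS libraries the sum moved with miR-142a-5p, at 177513 CPM in the first and 7356 CPM in the second wt library. In 3'RR-deficient NS libraries miR-142a-5p was at 84926 and 6191 CPM. Whether the list separates B-cells from other blood cells was not tested.

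With LPS, 5 of the 6 members, from both families, were called lower in wt and 3'RR-deficient cells, as were 8.61% of all features tested. In these 8 libraries the 3 miR-99/100 members were 3.52 to 4.40-fold lower and the pair of miR-125 members from the 5p arm 9.42 and 13.2-fold lower in LPS than in NS cultures, while in Eµ-deficient cells all 5 stood above all wt and 3'RR-deficient libraries of the same condition, as did 11.4% of all features tested with them.

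miR-99a-5p, of the chromosome 16 cluster, was measured in wt cells at 135 and 58.9 CPM without LPS and at 23.3 and 26.7 CPM with LPS. In 3'RR-deficient cells it was at 58.0 and 45.0 CPM without LPS and at 9.51 and 10.8 CPM with LPS. The highest LPS library of these genotypes was thus below the lowest NS library, and the libraries of 3'RR-deficient cells were below those of wt in both conditions. In the Eµ-deficient libraries miR-99a-5p was at 316 CPM (NS) and 228 CPM (LPS), the highest of all.

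miR-100-5p, of the chromosome 9 cluster, was at 101 and 35.3 CPM in wt NS and at 19.0 and 16.9 CPM in wt LPS libraries. In 3'RR-deficient libraries its level was 46.1 and 40.8 CPM (NS) and 9.07 and 9.62 CPM (LPS). NS and LPS libraries did not overlap, but wt NS held both the highest and the lowest of the 4 NS values. Eµ-deficient cells had 288 CPM without and 281 CPM with LPS.

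miR-99b-5p, of the chromosome 17 cluster, was at 49.96 and 114 CPM in wt NS, and at 30.8 and 18.5 CPM in wt LPS libraries. In 3'RR-deficient cells the level was 52.7 and 81.7 CPM (NS) and 23.9 and 11.3 CPM (LPS). Here too no LPS library reached an NS library, the highest LPS value being 30.8 and the lowest NS value 49.96 CPM. The Eµ-deficient libraries had 187 CPM (NS) and 71.6 CPM (LPS), and the LPS library lay within the range of the NS libraries of the other genotypes.

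miR-125a-5p, from the same chromosome 17 cluster, was at 48.2 and 161 CPM in wt NS and at 7.50 and 4.82 CPM in wt LPS libraries. In 3'RR-deficient cells it was at 59.4 and 167 CPM (NS) and at 13.7 and 7.998 CPM (LPS). In both genotypes the second NS library was the higher, and all LPS libraries were far below both. In Eµ-deficient cells miR-125a-5p was at 363 CPM without and 144 CPM with LPS.

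miR-125b-5p, the product of the chromosome 9 and chromosome 16 loci, was at 97.8 and 121 CPM in wt NS and at 7.92 and 18.7 CPM in wt LPS libraries. In 3'RR-deficient cells it was at 55.7 and 123 CPM (NS) and at 10.6 and 5.96 CPM (LPS). The groups did not overlap. The Eµ-deficient libraries had 249 CPM (NS) and 123 CPM (LPS), so the LPS library was close to the highest NS libraries of the other genotypes.

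miR-125a-3p was near the detection limit, with 3 and 35 counts in wt NS, 0 and 18 in 3'RR-deficient NS and 51 in Eµ-deficient NS libraries. With LPS it had 0 counts in both wt libraries, 4 and 0 in 3'RR-deficient cells and 23 in Eµ-deficient cells. A count of 0 allows up to 3 counts in a library, a limit that covers counting error only. Within wt and within 3'RR-deficient NS cells, nearly all of the counts were in the second library.

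**Figure D1:**
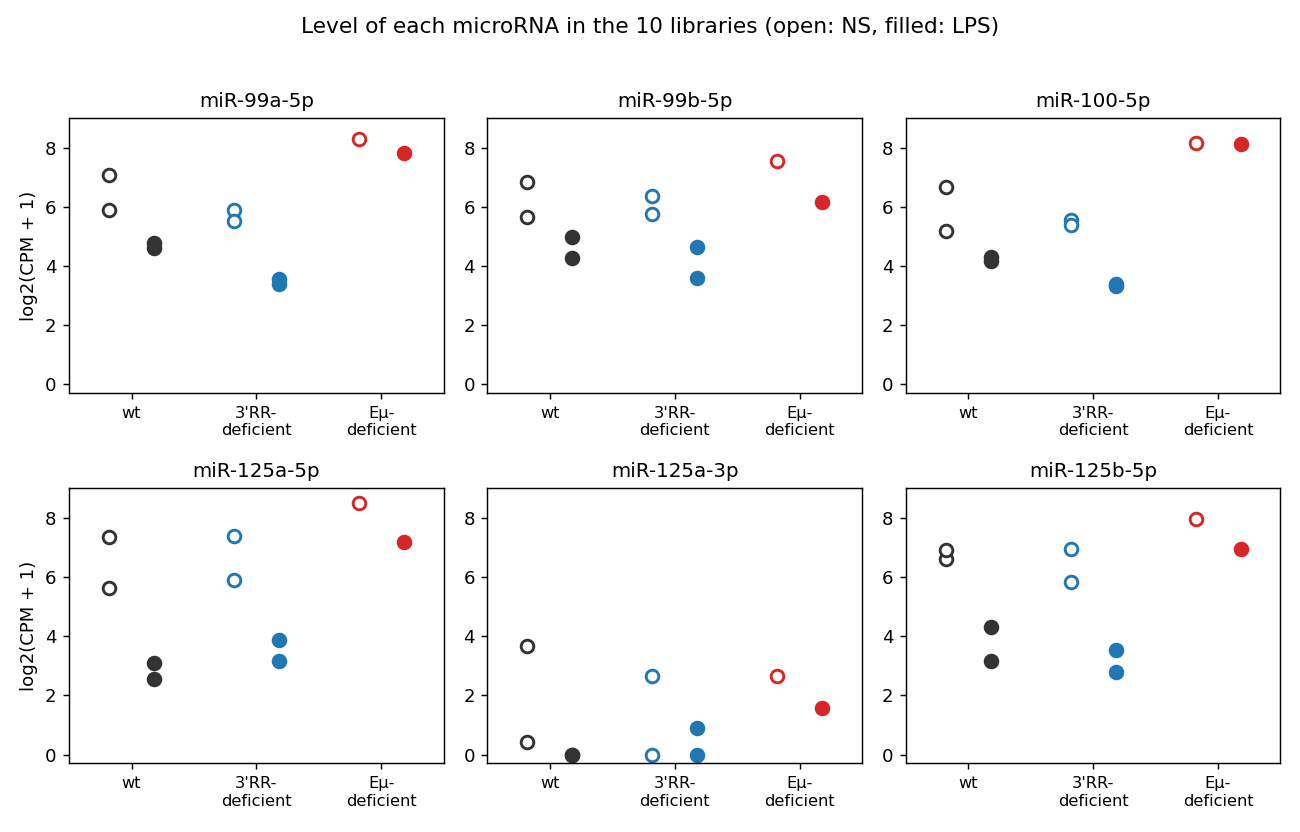
Level of each of the 6 microRNAs as log2(CPM + 1) on the vertical axis, by genotype on the horizontal axis, 1 point per library, open for NS and filled for LPS. For the 5 microRNAs from the 5p arm the filled points of wt and 3'RR-deficient cells all lie below the open points, and the Eµ-deficient points lie above those of the other genotypes in the same condition. The exception is miR-125a-3p, which reaches at most 11.7 CPM.

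The LPS response was tested over wt and 3'RR-deficient cells together, with genotype as a second term (8 libraries, edgeR's quasi-likelihood test, Benjamini-Hochberg adjustment over the 720 microRNA features that passed the filter on low counts, threshold 0.05). Of the 6 members, all of which passed that filter, 5 fell and none rose. Among all features 8.61% were called lower and 13.2% higher (157 called in all), and the members' median log2 fold change was -2.69 against 0.07 over all features. The 4 LPS libraries were all below the 4 NS libraries for 5 of 6 members, which was the case for 12.9% of all features. In these bulk samples, fewer cells that hold a microRNA and less of it per cell cannot be told apart.

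In the miR-99/100 family the log2 fold change with LPS was -2.14 (SE 0.43) for miR-99a-5p, with edgeR's adjusted p = 0.00762, and -2.05 (SE 0.45) for miR-100-5p, with edgeR's adjusted p = 0.0109. miR-99b-5p fell by 1.81 on the log2 scale (SE 0.52, edgeR's adjusted p = 0.0310), the call of the 5 that depended on single libraries: its adjusted p from edgeR was 0.0719 without the second wt NS library, 0.0525 without the second 3'RR-deficient NS, 0.0582 without the first wt LPS, 0.0937 without the second wt LPS and 0.0804 without the second 3'RR-deficient LPS library. In the miR-125 family, miR-125a-5p fell by 3.72 (SE 0.63, edgeR's adjusted p = 0.00346) and miR-125b-5p by 3.24 (SE 0.52, edgeR's adjusted p = 0.00261). miR-125a-3p, at -4.36 (SE 1.97), did not pass, with edgeR's adjusted p = 0.135, and ranged from -7.77 without the first 3'RR-deficient LPS library to -2.78 without the second wt NS library. It passed with no filter on low counts (0.0139), with DESeq2 (0.0295) and without the first 3'RR-deficient NS library (0.0385). Without both second NS libraries the same 5 members were called, from -1.37 for miR-99b-5p to -2.89 for miR-125b-5p, with miR-125a-5p at -2.77, where 217 of 824 features were called (26.3%).

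Within a single genotype, with 2 libraries per condition, edgeR called no member in the fit without a block. With the replicate block within condition it called 6 in wt and 5 in 3'RR-deficient cells (25.3% and 25.4% of all features in either direction), and with the replicate block alone 1 and 0 (3.75% and 1.53%). With no filter 3 and 2 members were called (2.78% and 1.72% of all features), with the GC trend removed 4 and 3 (9.58% and 5.79%), and with crossed numbers in the replicate block 2 and 5 (12.1% and 11.5%). The log2 fold changes in wt were -1.88 (miR-99a-5p), -1.84 (miR-100-5p), -1.71 (miR-99b-5p), -4.08 (miR-125a-5p) and -3.04 (miR-125b-5p), with edgeR's adjusted p between 0.0766 and 0.247. Several of them moved with single libraries: miR-99b-5p was at -2.52 without the first and -0.94 without the second wt NS library, miR-125a-5p at -5.02 and -2.89, miR-100-5p at -2.43 without the second, and miR-125b-5p at -3.87 without the second wt LPS library. In 3'RR-deficient cells they were -2.40, -2.27, -1.92, -3.38 and -3.43 in the same order, with edgeR's adjusted p between 0.0784 and 0.227. There miR-125a-5p was at -4.15 without the first and -2.62 without the second 3'RR-deficient NS library, miR-125b-5p at -4.11 without the first, and miR-99b-5p at -2.73 without the first 3'RR-deficient LPS library. At an unadjusted p under 0.05, 5 members were lower in wt by edgeR, as were 9.03% of all features, and 5 in 3'RR-deficient cells, as were 7.5%. DESeq2 called 4 members in each, and 13.6% (wt) and 12.5% (3'RR-deficient) of all features in either direction. In the fit without a block, with all 8 libraries, edgeR called 5 of 720 (0.694%) in wt and 7 of 720 (0.972%) in 3'RR-deficient cells, all of them higher with LPS. With 1 library left out it called up to 71 and 62.

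The response itself was compared between both genotypes through the interaction term. For the 5 members from the 5p arm the difference of the log2 fold changes, 3'RR-deficient minus wt, lay between -0.52 (95% interval -2.54 to 1.51, miR-99a-5p) and 0.70 (-1.98 to 3.38, miR-125a-5p). edgeR called no member and 0 of 720 features (0%), DESeq2 called none either, and no member was under an unadjusted p of 0.05. The intervals are wide, and differences of several fold between the genotypes' responses were not detectable with these libraries.

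**Figure D2:**
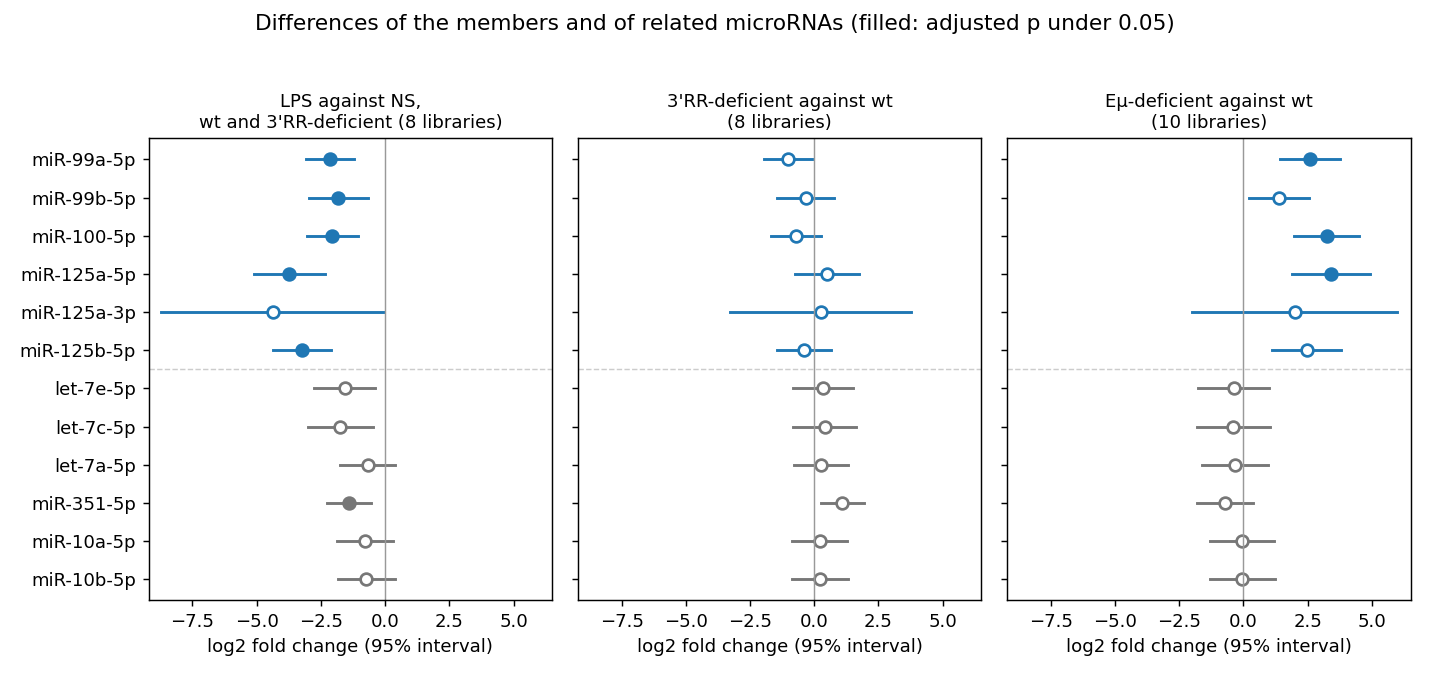
Log2 fold change with its 95% interval (horizontal axis) of the 6 members (blue) and of 6 related microRNAs (grey) in 3 comparisons, filled where edgeR's adjusted p was under 0.05. With LPS 5 members are filled and below 0; in 3'RR-deficient against wt cells no row is filled; in Eµ-deficient against wt cells miR-99a-5p, miR-100-5p and miR-125a-5p are filled and above 0, while the 6 grey rows lie between -0.72 and -0.05, unfilled and with intervals that include 0.

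The summed levels of the markers of other cell types were, like the members, lower in the LPS libraries of wt and 3'RR-deficient cells. Of the 4 microRNAs of the B-cell list 1 fell and 1 rose. miR-150-5p, a microRNA of resting lymphocytes, fell by 2.45 (SE 0.42, edgeR's adjusted p = 0.00392), while miR-155-5p, known to be induced on activation, rose by 2.76 (SE 0.44, edgeR's adjusted p = 0.00261) on the log2 scale. The summed level of the 2 myeloid microRNAs (miR-223-3p and miR-223-5p) was 479 to 1990 CPM in the 4 NS and 82.4 to 146 CPM in the 4 LPS libraries of wt and 3'RR-deficient cells, and both fell with LPS. The 4 erythroid microRNAs summed to 2530 to 6669 CPM in NS and 167 to 1150 CPM in LPS libraries, and 1 of 4 (miR-486a-5p) fell. The 7 stromal and endothelial microRNAs summed to 214 to 1107 CPM in NS and 73.0 to 115 CPM in LPS libraries, and 4 of 7 fell. miR-214-3p, a microRNA of stromal cells, was at 0 counts in all 4 of these LPS libraries and miR-145a-5p in both 3'RR-deficient ones. The endothelial miR-126a-3p and miR-126a-5p of this list were at -0.19 and 0.08 on the log2 scale with LPS, without a call, and miR-126a-3p was lower in the Eµ-deficient LPS library (13.7 CPM) than in the 4 other LPS libraries (36.9 to 62.6 CPM), whereas miR-143-3p made up most of the list's sum there (807 CPM). In Eµ-deficient cells the sums were 5031 and 512 CPM (myeloid, NS and LPS), 9289 and 4078 CPM (erythroid) and 627 and 990 CPM (stromal and endothelial). The part of other cells in the members' levels was not tested.

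**Figure D3:**
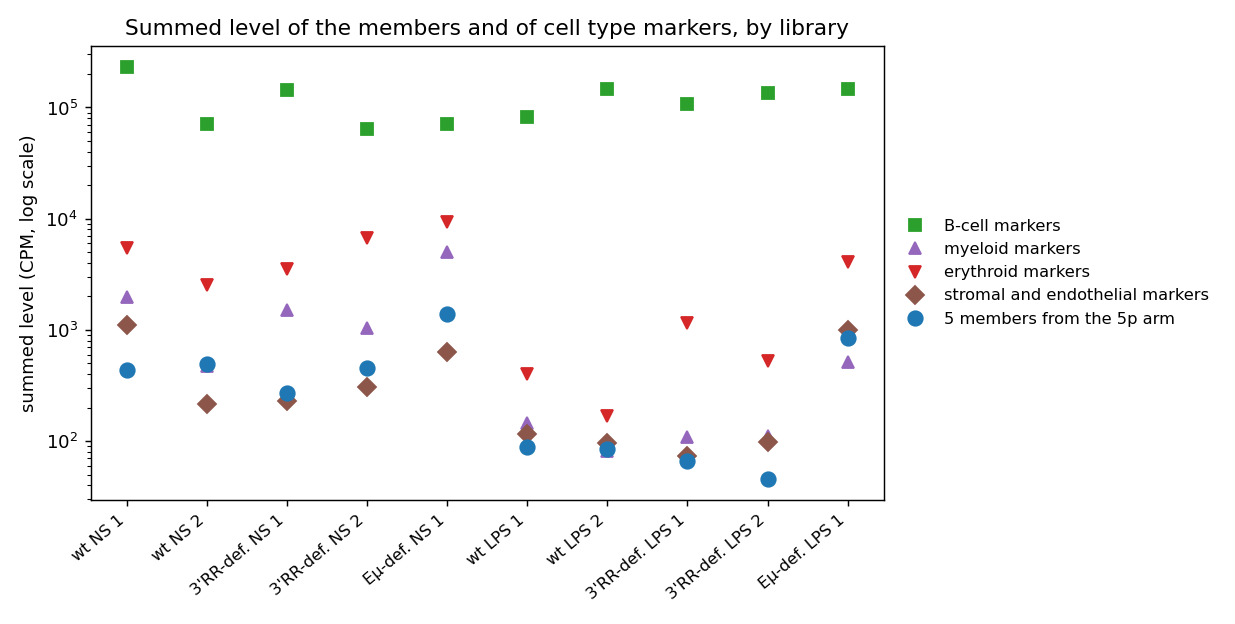
Summed level in CPM (log axis) of the 5 members from the 5p arm and of 4 lists of cell type markers, for each of the 10 libraries on the horizontal axis. The members' sum is 272 to 489 CPM in the NS and 45.7 to 88.5 CPM in the LPS libraries of wt and 3'RR-deficient cells and 1402 and 846 CPM in the Eµ-deficient libraries, and the myeloid, erythroid and stromal sums are also lower with LPS in wt and 3'RR-deficient cells.

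Loss of the 3'RR was accompanied by no called change of a member. Over both conditions the log2 difference from wt was -1.02 (95% interval -1.94 to -0.10) for miR-99a-5p, the single member under an unadjusted p of 0.05 (0.833% of all features were, and lower), with edgeR's adjusted p = 0.997. It was -0.71 (-1.68 to 0.25) for miR-100-5p, -0.34 (-1.44 to 0.77) for miR-99b-5p, -0.40 (-1.44 to 0.65) for miR-125b-5p and 0.49 (-0.77 to 1.74) for miR-125a-5p. In ratios of same-numbered libraries, for which the labels give no shared origin, miR-99a-5p was lower in 3'RR-deficient cells in 4 of 4, as were 7.36% of all features, at -1.21 and -0.39 (NS) and -1.27 and -1.27 (LPS) on the log2 scale. miR-125a-5p was higher in 4 of 4, as were 7.5% of all features, at 0.30 and 0.051 (NS) and 0.85 and 0.70 (LPS). The other 3 members from the 5p arm had ratios of both signs, from -0.70 to 0.077 (miR-99b-5p), -1.13 to 0.21 (miR-100-5p) and -1.60 to 0.41 (miR-125b-5p). edgeR called 1 of 720 features over both conditions (0.139%), 0 of 720 in NS and 0 of 720 in LPS cells alone, and neither edgeR nor DESeq2 called a member in any of the 3 comparisons. No member was under an unadjusted p of 0.05 in NS or in LPS cells alone.

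In Eµ-deficient cells 3 members, miR-99a-5p, miR-100-5p and miR-125a-5p, were called higher than in wt cells over both conditions, and each of these calls was lost on leaving out any 1 of 3 LPS libraries. Both Eµ-deficient libraries were above all 4 wt and 3'RR-deficient libraries of their condition for 5 of 6 members (11.4% of the 988 features tested with all 10 libraries were so). Against the median of those 4 libraries, the excess of these 5 without LPS was 2.28-fold (miR-125b-5p) to 6.61-fold (miR-100-5p), and with LPS it was 3.38-fold (miR-99b-5p) to 21.2-fold (miR-100-5p). These ratios rest on 1 Eµ-deficient library in each condition, so that within a condition there is no replicate check. From NS to LPS the Eµ-deficient libraries differed by -0.04 (miR-100-5p), -0.47 (miR-99a-5p), -1.02 (miR-125b-5p), -1.34 (miR-125a-5p) and -1.38 (miR-99b-5p) on the log2 scale, with no test.

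A test was possible over both conditions, where the 2 Eµ-deficient libraries serve as replicates of each other once stimulation is a term of the fit (all 10 libraries, additive). This fit assumes the same LPS response in all genotypes, whereas miR-100-5p differed by -0.04 between the Eµ-deficient libraries and by -2.05 over the other genotypes. edgeR called 3 members higher in Eµ-deficient than in wt cells: miR-100-5p at 3.24 (SE 0.60, adjusted p = 0.0165), miR-125a-5p at 3.41 (SE 0.71, adjusted p = 0.0239) and miR-99a-5p at 2.59 (SE 0.55, adjusted p = 0.0239). Among all 988 features 16 were called (1.62%), 14 of them higher (1.42%). miR-125b-5p, at 2.45 (SE 0.63), had an adjusted p of 0.0635 from edgeR, miR-99b-5p, at 1.37 (SE 0.54), one of 0.287, and miR-125a-3p, at 1.99 (SE 1.87), one of 0.740. By DESeq2 4 members were called, miR-125b-5p among them, and 5.57% of all features. The call of miR-125b-5p depended on the setting: edgeR also called it with total count scaling (adjusted p = 0.0459, 2.83% of all features called), no filter (0.00437, 2.41%), all classes of the table (0.0139, 3.43%), the GC trend removed (0.0164, 3.5%) and the wt and Eµ-deficient libraries alone (0.0434, 3.49%). The 3 calls were lost without either wt LPS library (edgeR's adjusted p 0.119 to 0.140 without the first and 0.0610 to 0.101 without the second) and without the Eµ-deficient LPS library (0.403 to 0.503), fits in which 2, 2 and 1 of all features were called. The log2 differences of the 3 were 2.51 to 3.32 and 2.88 to 3.42 without either wt LPS library, and 1.87 to 2.27 without the Eµ-deficient LPS library. Without the Eµ-deficient NS library the 3 were called, at 3.26 to 4.32, and so was miR-125b-5p (3.29, edgeR's adjusted p = 0.0376), with 15 of all features called. miR-125b-5p was also called without the first wt NS library (2.66, edgeR's adjusted p = 0.0447, 33 of all features called), and was at 1.38 without the Eµ-deficient LPS library. miR-125a-3p ranged from 0.65 without the Eµ-deficient LPS library to 4.98 without the second wt NS library, with no call. Where 1 Eµ-deficient library is left, it is assumed to vary like the other groups. With the replicate block within condition 5 members were called (10.6% of all features). With the replicate block alone the call of miR-99a-5p was lost (2.44, edgeR's adjusted p = 0.0522), where 1.52% of all features were called. Without both second NS libraries 5 members were called, from 1.99 (miR-99b-5p) to 4.19 (miR-125a-5p), where 71 of 955 features were called (7.43%).

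The median of all features in this comparison was -0.17 on the log2 scale with TMM and 0.20 with total count scaling. Relative to that median the members from the 5p arm were higher under both, by 1.55 to 3.58 and by 1.34 to 3.43. Against 3'RR-deficient cells, a comparison that shares the Eµ-deficient libraries, miR-99a-5p was at 3.67 (SE 0.56), miR-100-5p at 4.01 (SE 0.61), miR-125b-5p at 2.91 (SE 0.64) and miR-125a-5p at 3.01 (SE 0.69), all called higher by edgeR (17 of 988 features were, 1.72%), and miR-99b-5p at 1.76 (SE 0.54) was not. miR-99b-5p was called with DESeq2 (adjusted p = 0.0401), and by edgeR with the replicate block within condition (adjusted p = 0.000324), with the GC trend removed (0.0153) and without both second NS libraries (2.21, adjusted p = 0.00537), settings that called 7.09%, 10.3%, 4.56% and 8.59% of all features in that order. Without the Eµ-deficient LPS library neither these 4 nor any other feature was called (edgeR's adjusted p of the 4 was 0.211 to 0.625), and they stood at 2.84 (miR-99a-5p), 2.93 (miR-100-5p), 1.70 (miR-125a-5p) and 1.75 (miR-125b-5p). Without the Eµ-deficient NS library all 4 were called, at 3.81 to 4.86. In both fits the lone Eµ-deficient library is assumed to vary like the other groups. The calls of miR-125a-5p and miR-125b-5p were lost without the first 3'RR-deficient NS, the first wt LPS or either 3'RR-deficient LPS library (edgeR's adjusted p 0.0622 to 0.139), and that of miR-125a-5p also without the second wt LPS library (0.0516), with a filter of 10 CPM in 2 libraries (0.0614) and with mature microRNAs alone (0.0504). Of the marker lists, edgeR called 1 of 7 stromal and endothelial microRNAs higher in Eµ-deficient than in wt cells (miR-199a-3p, 3.70, SE 0.83, adjusted p = 0.0318), and 0 of 2 myeloid and 0 of 4 erythroid ones, which stood at 1.43 and 2.12 and between 1.03 and 2.87. The median log2 difference of the 7 stromal and endothelial microRNAs was 3.50 against wt cells (members 2.52). It was 4.67 against 3'RR-deficient cells (members 2.96). In each comparison 6 of the 7 were higher and 1 was lower. Against 3'RR-deficient cells edgeR called 3 of these 7 higher, and 0 of 2 myeloid and 0 of 4 erythroid ones. The part of those cells in the difference was not tested.

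The makeup of the families changed between libraries as well as their sum. The summed level of miR-99a-5p, miR-99b-5p and miR-100-5p was 0.578 to 1.96 times that of miR-125a-5p and miR-125b-5p in the 4 NS libraries of wt and 3'RR-deficient cells, and 1.75 to 4.74 times in the 4 LPS libraries, so that these ranges overlapped. In Eµ-deficient cells the ratio was 1.29 (NS) and 2.18 (LPS). miR-125a-5p made up 11.1% to 36.4% of the 5 members' sum in NS and 5.63% to 20.5% in LPS libraries of wt and 3'RR-deficient cells. In the Eµ-deficient LPS library miR-100-5p held the largest share, 33.2%, and in the first and second wt LPS libraries miR-99b-5p (34.8%) and miR-99a-5p (31.2%) did.

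**Figure D4:**
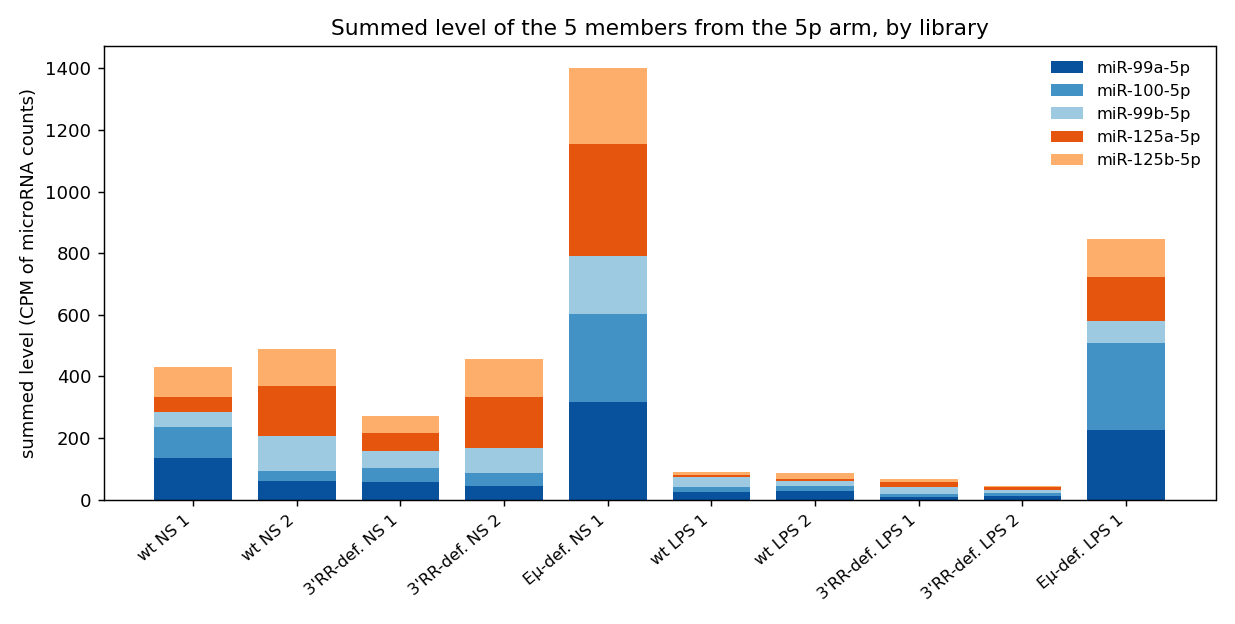
Summed level in CPM (vertical axis) of the 5 members from the 5p arm in each of the 10 libraries, stacked by microRNA, with the miR-99/100 family in blue and the miR-125 family in orange. The orange part is larger than the blue part in the second NS libraries of wt and 3'RR-deficient cells, where the family ratio is 0.740 and 0.578, and smaller in all other libraries.

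The other products of the same clusters and the relatives by sequence formed a list of 16 microRNAs outside the 6 members, of which 12 had a row in the table and 8 passed the filter with wt and 3'RR-deficient cells. With LPS 1 of the 8 fell and none rose, and their median log2 fold change was -1.37. The microRNA that fell was miR-351-5p, the only non-member found with the miR-125 seed among the 1093 of 1302 mature rows that have a RefSeq sequence by name (miR-6367 and miR-6394 were not analysed here), at -1.41 (SE 0.39, edgeR's adjusted p = 0.0286). In Eµ-deficient against wt cells edgeR called 0 of 10 tested, and miR-351-5p was at -0.72 (SE 0.51), with 63.2 CPM in the NS and 16.5 CPM in the LPS library of Eµ-deficient cells against 28.6 to 169 CPM in the others. The miR-10 relatives, whose seed begins with the same bases (ACCCUGU against ACCCGUA), were at -0.77 (miR-10a-5p, SE 0.49) and -0.73 (miR-10b-5p, SE 0.50) with LPS and at -0.05 each in Eµ-deficient cells, without a call.

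The let-7 partners of the clusters were much more abundant than the members beside them. Their sequences are shown because let-7e-5p alone comes from the miR-99b and miR-125a cluster and from nowhere else, while let-7c-5p and let-7a-5p are also made from loci outside these clusters; let-7a-5p differs from let-7e-5p at 1 base, U9G.
let-7e-5p: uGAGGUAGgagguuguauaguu
let-7c-5p: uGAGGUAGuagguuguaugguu
let-7a-5p: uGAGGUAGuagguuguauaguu

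let-7e-5p was at 7099 and 13537 CPM in wt NS and at 933 and 5028 CPM in wt LPS libraries. In 3'RR-deficient cells it was at 7730 and 12635 CPM (NS) and at 4297 and 4294 CPM (LPS), and in Eµ-deficient cells at 4909 and 3470 CPM. All LPS libraries of wt and 3'RR-deficient cells were below the NS libraries, and the Eµ-deficient libraries, the highest of their condition for miR-99b-5p and miR-125a-5p of the same cluster, were the lowest (NS) and the next to lowest (LPS) of their condition for let-7e-5p. The Eµ-deficient libraries held the same ranks for let-7c-5p (10215 CPM in NS, 6465 CPM in LPS) and let-7a-5p (55337 and 38767 CPM). How reads that fit both let-7e-5p and the more abundant let-7a-5p were assigned is not given. The log2 fold change of let-7e-5p with LPS was -1.57 (SE 0.54, edgeR's adjusted p = 0.0605), and its difference between Eµ-deficient and wt cells was -0.39 (SE 0.65, edgeR's adjusted p = 0.874). let-7c-5p, at -1.74 with LPS (SE 0.57), had an adjusted p of 0.05001 from edgeR, just above the threshold, and let-7a-5p was at -0.68 (SE 0.48). How efficiently each sequence entered the libraries was not measured, so levels of different microRNAs in a library are compared here only as read counts.

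The opposite arms were rare. miR-99b-3p had at most 58 counts in a library and a log2 fold change with LPS of -2.76 (SE 1.23, edgeR's adjusted p = 0.130). miR-125b-2-3p had at most 34 counts and was at -1.34 with LPS (SE 1.09, edgeR's adjusted p = 0.410). miR-125b-1-3p, with at most 24 counts, and let-7c-1-3p, with at most 16, passed the filter only with all 10 libraries, where edgeR put them at 4.39 (SE 2.39, adjusted p = 0.515) and 2.02 (SE 2.23, adjusted p = 0.796) in Eµ-deficient against wt cells. Most of their counts were in the Eµ-deficient libraries (8 in NS and 24 in LPS, and 16 and 0), with at most 4 in any other library. They passed the filter through those libraries, which favours a higher value there, so these differences carry no weight. The Mir125a hairpin row held 15 and 6 counts in the wt LPS libraries, in which the mature miR-125a-5p had 36 and 32 counts, and at most 1 count in any other library. Whether these hairpin counts are precursor molecules cannot be told from the table.

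Ratios of microRNAs within a library do not depend on the scaling, and 6 were compared between LPS and NS over the 10 libraries (log2 ratio of counts, exact two-sided permutation within genotype, 72 arrangements, smallest possible p of 0.0278). With so few arrangements an adjusted p under 0.05 needed at least 4 of the 6 ratios at the smallest p, so that the lack of a call says little. The ratio of miR-99b-5p to miR-125a-5p, hairpins of 1 cluster, was higher with LPS by 1.37 (exact p = 0.0556, adjusted 0.167), from a mean of -0.52 ± 0.47 (SD, n = 5) to 0.85 ± 1.24 (SD, n = 5). It stood between -1.03 and 0.05 in the 4 NS and between 0.49 and 2.02 in the 4 LPS libraries of wt and 3'RR-deficient cells, whereas in Eµ-deficient cells it was -0.96 without and -1.003 with LPS. The ratio of let-7e-5p to miR-125a-5p was higher with LPS by 1.65 (exact p = 0.0556, adjusted 0.167), with overlap of the groups. The difference was 1.06 without the Eµ-deficient NS library (adjusted exact p = 0.833), 1.09 without the second wt LPS library and 2.45 without the Eµ-deficient LPS library. This ratio was lowest in the Eµ-deficient libraries, at 3.76 (NS) and 4.60 (LPS) against 6.24 to 10.005 in the 8 others. It carries the uncertainty in how reads were split between let-7e-5p and let-7a-5p.

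The remaining ratios differed less than the spread between libraries. miR-100-5p to miR-99a-5p differed by 0.17 (exact p = 0.194, adjusted 0.389), with all 10 libraries between -0.74 and 0.30. miR-125b-5p to miR-125a-5p differed by 0.29 (exact p = 0.472, adjusted 0.708), miR-125a-3p to miR-125a-5p by 0.50 (exact p = 0.722, adjusted 0.867) and miR-99a-5p to miR-99b-5p by -0.02 (exact p = 1, adjusted 1).

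**Figure D5:**
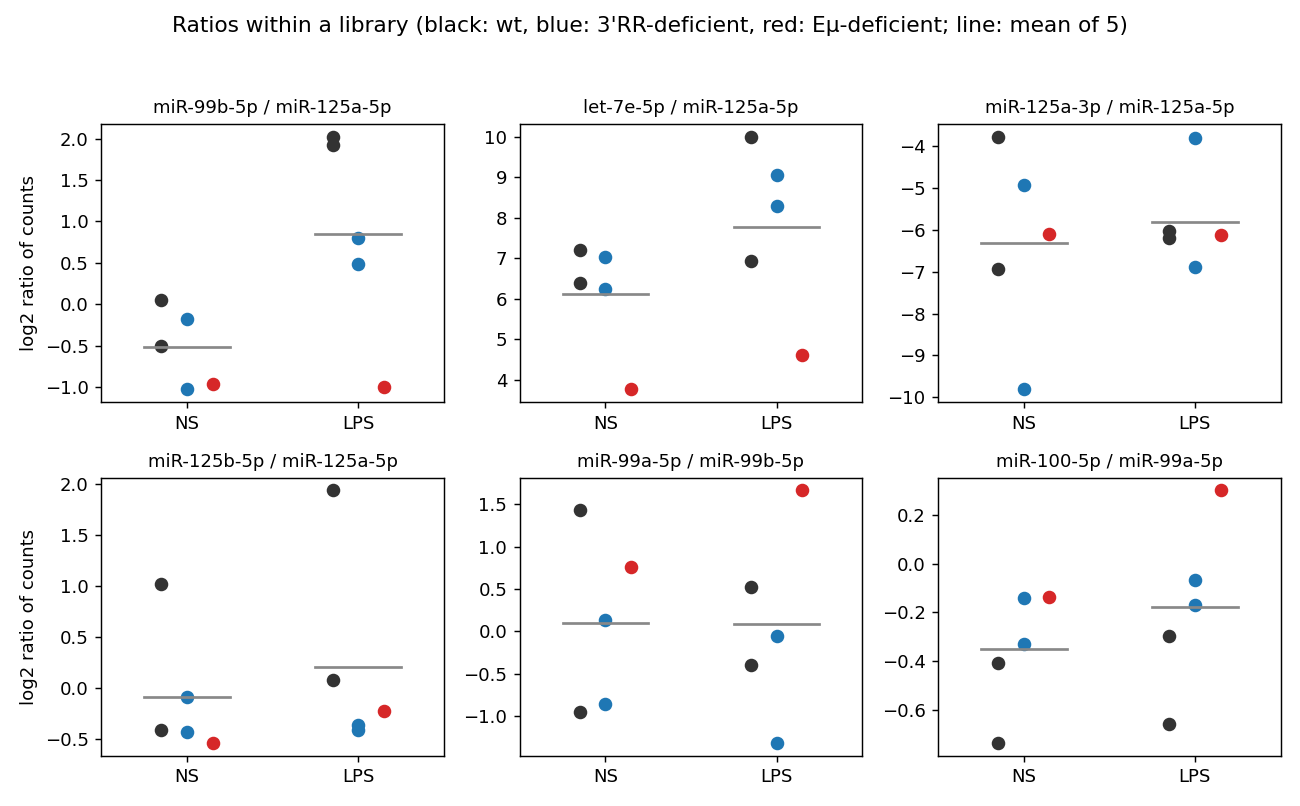
Log2 ratio of counts of 6 pairs of microRNAs (vertical axis) in NS and LPS libraries (horizontal axis), 1 point per library, black for wt, blue for 3'RR-deficient and red for Eµ-deficient, with a grey line at the mean of 5 libraries. For miR-99b-5p to miR-125a-5p the black and blue LPS points lie above the black and blue NS points, between 0.49 and 2.02, while the red points lie at -0.96 and -1.003.

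The microRNAs with the most similar profile were sought over the 10 libraries, by the root mean square (RMS) difference of centred log2 CPM. No member reached the minimum mean of 100 CPM set for this (the highest was miR-125a-5p, at 97.6 CPM), so a minimum of 50 CPM, chosen after seeing these values, was used, at which 5 members were compared with 203 other mature microRNAs each. miR-99a-5p and miR-100-5p, which differ by 1 base, were each other's nearest, with an RMS difference of 0.283 against a median of 1.85 and 1.93 over all microRNAs compared. miR-125b-5p was nearest to miR-125a-5p (0.748), then to miR-99a-5p (0.848), miR-99b-5p (0.881) and miR-100-5p (0.956), so that its 4 nearest were the other members. miR-99b-5p had its nearest profiles outside the families, in miR-664-3p (0.594), miR-328-3p (0.689) and miR-574-3p (0.745).

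Outside the members, the nearest to miR-99a-5p were miR-143-3p (0.921), miR-664-3p (1.09) and miR-223-3p (1.11), and the nearest to miR-100-5p were miR-143-3p (0.859), miR-223-3p (1.17) and miR-451a (1.18). For miR-125a-5p they were miR-486b-5p (0.715), miR-486a-5p (0.716) and miR-328-3p (1.13), where both miR-486 rows come from near-identical copies, and for miR-125b-5p miR-664-3p (0.972), miR-223-3p (1.02) and miR-328-3p (1.03). miR-143-3p is in the stromal, miR-223-3p in the myeloid and miR-451a and miR-486a-5p in the erythroid marker list. miR-143-3p was at 148 to 894 CPM in the 4 NS and 15.7 to 62.7 CPM in the 4 LPS libraries of wt and 3'RR-deficient cells, and at 438 (NS) and 807 CPM (LPS) in Eµ-deficient cells. These are descriptions over 10 libraries made with the same kit, and no test was made.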

How the data were processed

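Small RNA was sequenced from 10 libraries of CD43- splenic B-cells (NextFlex small RNA kit, 17 PCR cycles and 75 nt reads, per the labels). The deposited values are raw read counts per feature, which the authors did not normalize; the submitters' processing notes name cutadapt 1.2.1, Bowtie2 and mm10, and the counting program and the treatment of reads with several matches are not given in the sources used here. The 2015 microRNA rows were fitted with edgeR 4.0.16 in R 4.3.3 (TMM scaling, filterByExpr by group, quasi-likelihood F-test, Benjamini-Hochberg adjustment over all features tested, threshold 0.05). The fits were also run on simulated counts of independent libraries. Those counts held no shift related to GC content, so they say nothing about such a shift. wt and 3'RR-deficient libraries were fitted together; Eµ-deficient cells entered an additive fit of all 10. DESeq2 1.42.0 was an alternative. Single-library log2 ratios used a prior count of 2, and ratios within a library 0.5 counts. The floor of 3 counts takes in counting error alone, because amplified reads carrying no molecular identifiers need not stem from separate molecules.

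The members, the related microRNAs (cluster products, same seed, miR-10) and the marker lists were chosen with earlier results of these data known. Named in the text were the 6 members whatever their result, the listed relatives with at least 10 counts in a library, and the 3 most similar profiles per member. Mature sequences of the 6 members were matched to RefSeq by name, and positions to GENCODE M21. Same-numbered libraries did not deviate together in every group (correlation 0.662 between both NS groups, -0.059 and -0.218 between NS and LPS of a genotype, 0.113 between both LPS groups), so the replicate number is an alternative only. Alternatives were other scalings, filters, feature sets and tests, the replicate number as a block, a correction for GC content, and leaving out libraries.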

Additional observations from a re-analysis of the deposited data

How the results depend on the processing

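The 5 members lower with LPS over wt and 3'RR-deficient cells stayed called under 12 other settings (5 or 6 called); with 1 library left out 4 to 6 were called, 4 where miR-99b-5p lost its call. All features called ranged from 132 to 336 (157 in the report) and, with 1 library left out, from 71 (without the second wt LPS library) to 163. Within 1 genotype the count of members called lower, 0 in the report, depended on the setting: in wt it was 3 with no filter, 4 with DESeq2, 4 with the GC trend removed and 0 to 3 with 1 library left out, and in 3'RR-deficient cells 2, 4, 3 and 0 to 3. Same-numbered libraries deviated together between both NS groups (correlation 0.662) but not between NS and LPS libraries of a genotype. With the replicate block 1 member was called in wt and none in 3'RR-deficient cells, with the replicate block within condition 6 and 5, and with crossed numbers 2 and 5 (12.1% and 11.5% of all features). All features called within 1 genotype, 5 in wt and 7 in 3'RR-deficient cells, ranged from 0 to 182 and from 0 to 183 over the settings, and with 1 library left out from 0 to 71 and from 0 to 62.

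In Eµ-deficient against wt cells 5 members were called with the replicate block within condition (10.6% of all features) and 5 without both second NS libraries; the replicate block alone left 2, without miR-99a-5p (2.44, adjusted p = 0.0522 by edgeR). With 1 library left out 0 to 4 were called, also against 3'RR-deficient cells (4 in the report, 3 to 5 under other settings, all features 8 to 164 against 20). Against wt, all features called ranged from 12 to 156 (16 in the report), the highest with all classes of the table, and from 1 to 33 with 1 library left out. The cause of these shifts was not tested.

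Changes of sign concerned members that were not called. miR-125a-3p was at 0.36 for LPS in 3'RR-deficient cells with the replicate block and at -0.34 for 3'RR-deficient against wt cells with the replicate block within condition, and miR-125a-5p at -0.18 for 3'RR-deficient against wt NS cells with the GC trend removed. With 1 library left out, the difference of responses ranged from -0.98 to 0.48 (miR-99b-5p), -1.04 to 0.15 (miR-100-5p), -0.44 to 1.51 (miR-125a-5p) and -0.95 to 0.30 (miR-125b-5p). In the same way 3'RR-deficient against wt ranged in NS cells from -1.04 to 0.13 (miR-100-5p), -0.63 to 1.32 (miR-125a-5p), -0.90 to 0.56 (miR-99b-5p), -8.24 to 2.88 (miR-125a-3p) and -0.75 to 0.30 (miR-125b-5p), in LPS cells from -1.22 to 0.13 (miR-99b-5p) and -1.21 to 0.068 (miR-125b-5p), and over both from -1.24 to 3.42 (miR-125a-3p); LPS in 3'RR-deficient cells ranged from -6.89 to 4.48 (miR-125a-3p). The within-library ratios ranged from -0.42 to 0.33 (miR-99a-5p to miR-99b-5p), -0.37 to 1.14 (miR-125a-3p to miR-125a-5p) and -0.14 to 0.57 (miR-125b-5p to miR-125a-5p). miR-125a-3p had few counts, at most 51 in a library. The correction for GC content, the crossed numbers, the fits without both second NS libraries and the comparison with 3'RR-deficient cells were chosen after seeing the data.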
